A study of Schizosaccharomyces pombe with 6 samples.

Results

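The genes described here are 8 nucleolar genes of fission yeast (*Schizosaccharomyces pombe*), chosen by gene identifier from the 7268 genes of the count table. They were *fib1* (SPBC2D10.10c), *nop56* (SPBC646.10c), *nop58* (SPAC23G3.06), *gar1* (SPBC20F10.01), *cbf5* (SPAC29A4.04c), *gar2* (SPAC140.02), *has1* (SPAC1F7.02c) and *nuc1* (SPBC4C3.05c), and all 8 had enough reads to be tested. RNA was sequenced from untreated cultures of WT (972), a *saf5* deletion (*Δsaf5*) and a *cwf12* deletion (*Δcwf12*), with 2 biological duplicates of each strain. All were grown in YE5S, a rich medium, at 30 °C to an OD600 of 0.5. Saf5 is known as a subunit of the methylosome and Cwf12 as a protein of the Prp19-associated complex of the spliceosome. The comparisons with WT set transcript levels in each deletion strain, as labelled, against those of WT. The strain table of the study lists deletions marked with antibiotic cassettes in *leu1-32* backgrounds, whereas 972 carries no such allele, and the labels do not say which isolate of each deletion was sequenced. If the isolates sequenced carried these markers, deletion and background cannot be told apart in a comparison with WT.

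The nucleolus is where RNA polymerase I copies the ribosomal DNA and where the new rRNA is cut, modified and packed with ribosomal proteins. Small nucleolar RNAs (snoRNAs) guide much of the modification, each bound by a fixed set of core proteins in a snoRNP. Box C/D particles methylate the ribose of chosen rRNA bases, with Fib1 (fibrillarin) as the methyltransferase and Nop56 and Nop58 as the scaffold. Box H/ACA particles turn chosen uridines into pseudouridine, with Cbf5 as the enzyme and Gar1 as one of its partners. Gar2 is the fission yeast relative of nucleolin, Has1 is a DEAD-box RNA helicase of ribosome assembly, and Nuc1 is the largest subunit of RNA polymerase I. Growing cells are known to spend a large share of their transcription on ribosomes.

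As both deleted genes act in splicing, the introns of the 8 genes are shown first. Among them only *nop58* and *gar1* hold introns, with 2 each, and the other 6 genes have none in the RefSeq annotation of ASM294v3. The deposited counts were made on another build, ASM294v2, so the coordinates given here are those of the ASM294v3 sequence, where each printed sequence occurs exactly 1 time. Capitals mark the first 6 bases, the sequence CTAAC where present (a branch point motif) and the closing AG.
*nop58* intron 1, chrI:876963-877003, plus strand: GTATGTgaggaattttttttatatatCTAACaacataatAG
*nop58* intron 2, chrI:877107-877174, plus strand: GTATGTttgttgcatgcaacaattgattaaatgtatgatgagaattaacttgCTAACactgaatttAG
*gar1* intron 1, chrII:3283467-3283536, plus strand: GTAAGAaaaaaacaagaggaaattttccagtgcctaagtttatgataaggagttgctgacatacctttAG
*gar1* intron 2, chrII:3283638-3283693, plus strand: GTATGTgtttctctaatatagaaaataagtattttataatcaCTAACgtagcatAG

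Of the 4 introns, 3 open with GTATGT, which begins 20% of the 5025 coding introns of the annotation, second to GTAAGT with 27.5%. The first intron of *gar1* opens with GTAAGA, found in 6.53% of introns, and holds neither CTAAC nor CTAAT, 1 or both of which are present in 69.5% of all introns. Other branch point sequences were not searched for, and this intron holds CTGAC near its end, so a missing branch point cannot be read from this. At 41 nt the first intron of *nop58* is short for the genome, where 11.6% of introns are as short or shorter. The other introns measure 68, 70 and 56 nt, against a median of 56 nt over all introns. The table counts whole genes, so splicing of these introns was not measured here. The length it lists for *gar1*, 1140 nt, lies nearer to the span with introns (1150 nt) than to the sum of the exons (1024 nt), and whether reads in introns were counted is not given in the sources used here.

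The sequences before the transcript starts were read because many fission yeast ribosomal protein genes share a promoter box, HomolD. HomolD (CAGTCAC, either strand) was found within 250 nt before the annotated start of 121 of 131 ribosomal protein genes, or 92.4%, and of 4.52% of all 5112 coding genes. None of the 8 nucleolar genes holds it there, and none holds the HomolE core CCCTACCC (1.55% of all coding genes) or GATGAG (6.85%), the core of the PAC box that budding yeast places before ribosome biogenesis genes. AAAAATTT was found in 3 of the 8, *fib1*, *gar2* and *nuc1*. It is the core of the RRPE box of budding yeast, and 13.6% of all coding genes hold it. The matches are printed with AAAAATTT in capitals, 5′ to 3′ on the strand of the gene, and a match is only a description of these letters. The first *fib1* match and the *gar2* match overlap a second match on the other strand.
*fib1*, 68 nt before the start, chrII:2983768-2983797, minus strand: ttcgaactcgtAAAAATTTttagcgttgca
*fib1*, 3 nt before the start, chrII:2983711-2983732, minus strand: tctgctatcctAAAAATTTtac
*gar2*, 38 nt before the start, chrI:1897405-1897434, plus strand: atatcatcggtAAAAATTTttttggctata
*nuc1*, 119 nt before the start, chrII:3127695-3127724, plus strand: gtagtttaccaAAAAATTTtacgtgtgtta

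The libraries held 9113139 to 12054198 counts. The deleted genes were examined before any strain difference. Reads on *cwf12* nearly vanished from *Δcwf12*, from 59.9 and 56.4 CPM in WT to 3.58 and 3.27 CPM (CPM are counts scaled to a common library size, here after TMM scaling). Reads on *saf5* were not lost from the libraries labelled *Δsaf5*, where 220 and 249 counts remained. The WT libraries had 323 and 234 and those of *Δcwf12* 355 and 298. Their log2 fold change on *saf5* against WT was -0.33 (SE 0.15, adjusted p = 0.09 by edgeR). The directions given below for the libraries labelled *Δsaf5* therefore rest on these labels, and no comparison of that strain can be made without them. The duplicates also differed in how closely they agreed. In WT, 7 of the 8 nucleolar genes were higher in replicate 1 than in replicate 2, with a median log2 difference of 0.21, while the median over all genes was 0.00. The duplicates labelled *Δsaf5* differed on these genes by a median of -0.09 and those of *Δcwf12* by 0.05. Values with 1 library left out are therefore given where they change a call on one of the 8 genes.

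The 8 genes together took 0.757% and 0.609% of the counts in the WT libraries, 0.542% and 0.549% in the libraries labelled *Δsaf5*, and 0.656% and 0.658% in *Δcwf12*. Even the higher of the libraries labelled *Δsaf5* thus lay below the lower WT library. Levels of different genes were compared as CPM per kilobase of the gene length listed in the table. On this scale *gar2* was highest in WT with 868 ± 227 CPM per kb (SD, n = 2) and *fib1* followed with 754 ± 106. Next came *gar1* with 591 ± 89.6, *cbf5* with 547 ± 41.3 and *nop56* with 491 ± 38. Within each WT library the order from *gar2* to *nop56* was the same. Across the WT libraries the ranges of *gar2* and *fib1* overlapped, those of *gar1* and *cbf5* also, and those of *cbf5* and *nop56* met at 518 CPM per kb. The range of *fib1* lay above that of *gar1*. Below them stood *nop58* with 408 ± 21.5, *has1* with 209 ± 25.9 and *nuc1* with 82.8 ± 3.12 CPM per kb. Among 4950 coding genes, *nuc1* ranked at the 74.6 percentile and the other 7 at the 90.1 percentile or above.

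All 8 genes were lower in the libraries labelled *Δsaf5* than in WT, with changes from -37.8% to -17.4%, whereas in *Δcwf12* only *has1* differed from WT past the threshold. A gene passed at an adjusted p under 0.05 in edgeR's quasi-likelihood test over all 6018 genes tested. In the libraries labelled *Δsaf5*, 8 of 8 fell and 0 rose, where 25.5% of all genes tested fell and 24.7% rose. None of the 8 reached a 2-fold change. In *Δcwf12*, 1 of 8 fell and 0 rose, where 25% of all genes fell and 25.5% rose. The median log2 fold change of the 8 was -0.49 in the *Δsaf5*-labelled libraries and -0.09 in *Δcwf12*, and that of all genes was 0.02 and 0.00. Both comparisons share the WT libraries, so their values are set side by side and not counted as separate evidence. In RNA from whole cultures, fewer cells that express a gene and less RNA per cell cannot be told apart.

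**Figure D1:**
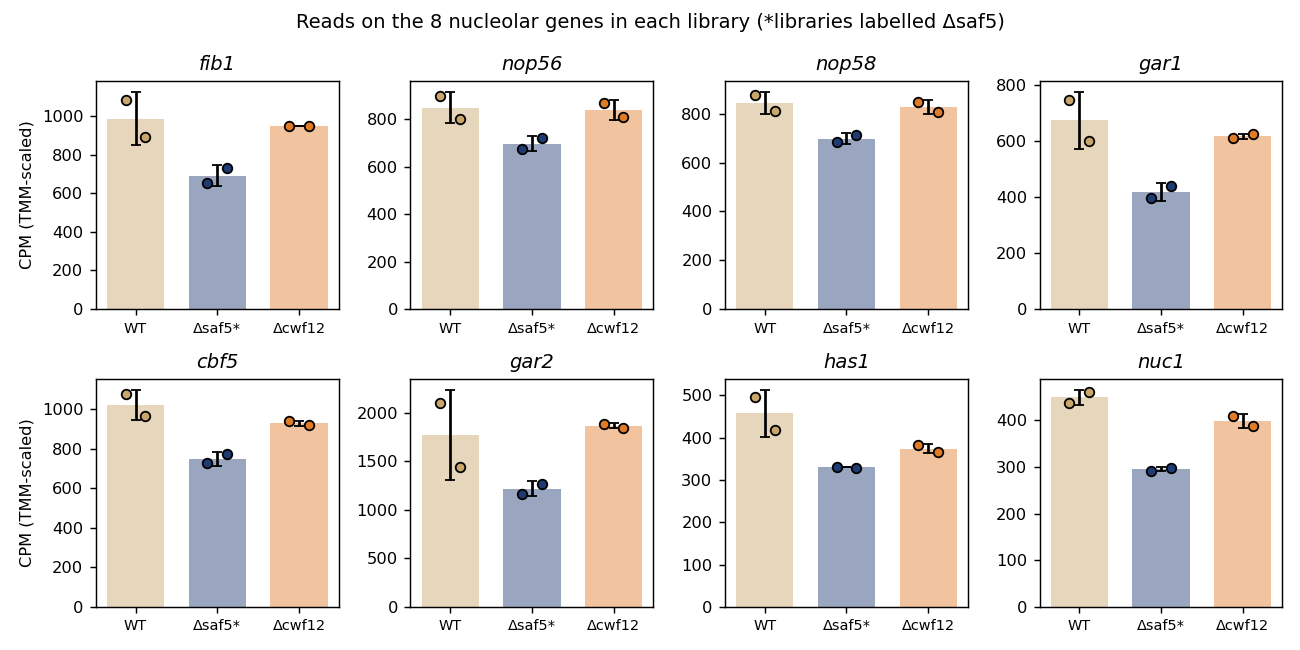
Level of each of the 8 nucleolar genes in TMM-scaled CPM (vertical axes, from 0) in WT, the libraries labelled *Δsaf5* and *Δcwf12*; points are the 2 libraries of a strain, bars their mean and error bars their SD. For each gene both libraries labelled *Δsaf5* lie below both WT libraries, and *gar2* has the widest gap between the WT libraries, 2103 and 1446 CPM. How many of all genes tested separate in this way was not counted.

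Among the box C/D genes, *fib1*, the methyltransferase, was measured at 1085 and 890 CPM in WT, 651 and 729 CPM in the *Δsaf5*-labelled libraries, and 948 and 950 CPM in *Δcwf12*. The libraries labelled *Δsaf5* were the lowest, and those of *Δcwf12* lay between the WT duplicates. Its log2 fold change was -0.52 (SE 0.11, adjusted p = 0.0016, edgeR) in the *Δsaf5*-labelled libraries and -0.06 (SE 0.11, adjusted p = 0.68) in *Δcwf12*. The scaffold gene *nop56* was at 897 and 803 CPM in WT, 674 and 722 CPM in the *Δsaf5*-labelled libraries, and 871 and 811 CPM in *Δcwf12*. Here too the libraries labelled *Δsaf5* did not overlap with WT, with a log2 fold change of -0.28 (SE 0.09, adjusted p = 0.021, edgeR), and *Δcwf12* lay within the WT range. Its partner *nop58* was at 876 and 813 CPM in WT, 683 and 713 CPM in the *Δsaf5*-labelled libraries, and 849 and 808 CPM in *Δcwf12*. The log2 fold change of *nop58* in the libraries labelled *Δsaf5* was -0.28 (SE 0.09, adjusted p = 0.018, edgeR), equal to that of *nop56*. In *Δcwf12* the log2 fold changes were -0.01 (adjusted p = 0.91) for *nop56* and -0.03 (adjusted p = 0.81) for *nop58*. The scaffold genes had the smallest differences of the 8, and their calls in the libraries labelled *Δsaf5* were lost without WT replicate 1 (log2 fold changes of -0.20 and -0.22, adjusted p = 0.091 and 0.062) and without replicate 1 of *Δsaf5* (adjusted p = 0.1 and 0.067). They were also lost with upper-quartile scaling (adjusted p = 0.12 for both) and, narrowly, with either *Δcwf12* library left out, which enters this comparison only through the shared spread and scaling (adjusted p = 0.051 for *nop56*).

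The box H/ACA genes gave one of the largest differences and one of middle size. *gar1* was measured at 746 and 602 CPM in WT, 397 and 441 CPM in the *Δsaf5*-labelled libraries, and 611 and 624 CPM in *Δcwf12*. It fell by 37.8% in the libraries labelled *Δsaf5*, the most of the 8, with a log2 fold change of -0.69 (SE 0.10, adjusted p = 2.1e-04, edgeR). In *Δcwf12* the 2 values lay between the WT duplicates, and the log2 fold change of *gar1* was -0.13 (SE 0.10, adjusted p = 0.33). This value also turned on the WT library kept, with 0.03 (adjusted p = 0.77) without WT replicate 1 and -0.28, which passed (adjusted p = 0.0044), without WT replicate 2. *cbf5*, the pseudouridine synthase, was at 1077 and 968 CPM in WT, 726 and 773 CPM in the *Δsaf5*-labelled libraries, and 939 and 919 CPM in *Δcwf12*. Its libraries did not overlap with WT in either deletion. The log2 fold change of *cbf5* was -0.45 (SE 0.09, adjusted p = 0.0015, edgeR) in the *Δsaf5*-labelled libraries and -0.14 (SE 0.09, adjusted p = 0.23) in *Δcwf12*, which did not pass. Without WT replicate 2 the latter was -0.22 and passed (adjusted p = 0.046), and without WT replicate 1 it was -0.06 (adjusted p = 0.65).

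*gar2*, the nucleolin gene, had the highest counts and the widest spread. It was at 2103 and 1446 CPM in WT, 1161 and 1270 CPM in the *Δsaf5*-labelled libraries, and 1885 and 1849 CPM in *Δcwf12*. The gap between the WT duplicates was wider than the step from the lower of them to either library labelled *Δsaf5*. Its log2 fold change in the libraries labelled *Δsaf5* was -0.55 (SE 0.15, adjusted p = 0.0080, edgeR). Without WT replicate 1 the value for *gar2* was -0.25 and did not pass (adjusted p = 0.076), and without replicate 1 of *Δsaf5* it was -0.48 (adjusted p = 0.083). In *Δcwf12* its log2 fold change was 0.07 (SE 0.15, adjusted p = 0.70), and the sign and call turned on the WT library kept, with 0.37 (adjusted p = 0.013) without WT replicate 1 and -0.18 (adjusted p = 0.17) without WT replicate 2.

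The helicase gene *has1* was the only one of the 8 to fall in both deletions. It was at 497 and 417 CPM in WT, 330 and 329 CPM in the *Δsaf5*-labelled libraries, and 382 and 366 CPM in *Δcwf12*, so that all 4 deletion libraries lay below both WT libraries. The log2 fold changes of *has1* were -0.47 (SE 0.09, adjusted p = 9.8e-04, edgeR) and -0.29 (SE 0.09, adjusted p = 0.018). The call in *Δcwf12* was lost without WT replicate 1 (-0.16, adjusted p = 0.08), without either *Δcwf12* replicate (adjusted p = 0.068 and 0.13) and with upper-quartile scaling (-0.21, adjusted p = 0.075).

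*nuc1*, the RNA polymerase I gene, had the lowest level per length and the most even WT duplicates after scaling, with replicate 2 the higher. It was at 437 and 461 CPM in WT, 292 and 298 CPM in the *Δsaf5*-labelled libraries, and 409 and 388 CPM in *Δcwf12*. In the libraries labelled *Δsaf5* it fell by 34.3%, a log2 fold change of -0.61 (SE 0.08, adjusted p = 5.0e-05, edgeR), and it kept this call with any 1 library left out, with values from -0.65 to -0.57. In *Δcwf12* both libraries were below both of WT, with a log2 fold change of -0.17 (SE 0.08, adjusted p = 0.072), and the test passed only without WT replicate 1 (-0.21, adjusted p = 0.019).

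The plot of strain differences puts the 3 comparisons of each gene side by side. The libraries labelled *Δsaf5* were also tested against *Δcwf12* directly, a comparison in which the WT libraries enter only through the shared scaling and spread. Lower values in the libraries labelled *Δsaf5* passed for 7 of the 8 genes and higher values for 0, where 27.8% of all genes tested were lower and 25.4% higher. The log2 differences that passed ran from -0.62 for *gar2* to -0.25 for *nop58*. *has1* did not pass, with -0.18 (SE 0.09, adjusted p = 0.10, edgeR), although both of its libraries labelled *Δsaf5* lay below both of *Δcwf12*. With a single library left out this count depended on the deletion libraries: 3 of 8 passed without *Δsaf5* replicate 1, and 4 of 8 without *Δcwf12* replicate 1 or without *Δcwf12* replicate 2. With 1 WT library left out, whichever it was, all 8 passed.

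**Figure D2:**
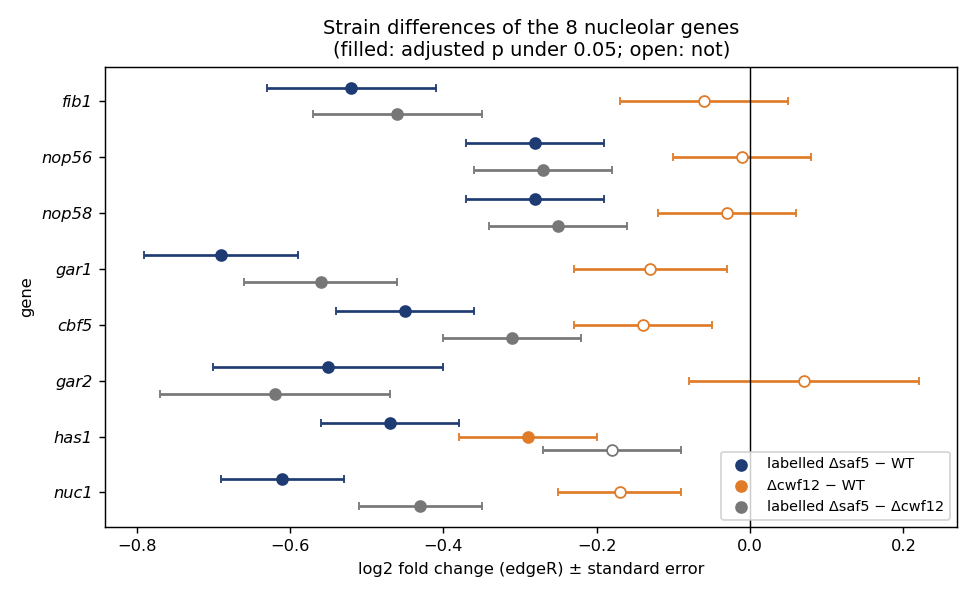
Log2 fold change of each of the 8 genes with its standard error (horizontal axis) for the libraries labelled *Δsaf5* against WT (blue), *Δcwf12* against WT (orange) and the libraries labelled *Δsaf5* against *Δcwf12* (grey); filled points passed an adjusted p under 0.05 in edgeR. All blue points are filled and lie between -0.69 and -0.28, while of the orange points only *has1* at -0.29 is filled.

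Partners of one particle were compared within each library as ratios of CPM per kb. *nop56* over *nop58*, the scaffold pair of the box C/D particle, was 1.22 and 1.18 in WT, 1.18 and 1.21 in the *Δsaf5*-labelled libraries and 1.23 and 1.20 in *Δcwf12*, so the 3 strains overlapped. *fib1* over *nop56* was 1.60 and 1.47 in WT, 1.28 and 1.34 in the *Δsaf5*-labelled libraries and 1.44 and 1.55 in *Δcwf12*. *gar1* over *cbf5*, the box H/ACA pair, was 1.14 and 1.02 in WT, 0.897 and 0.936 in the *Δsaf5*-labelled libraries and 1.07 and 1.11 in *Δcwf12*. For these last pairs the libraries labelled *Δsaf5* lay below the other 4, while WT and *Δcwf12* overlapped. The ratio of *nuc1* to *rpa2*, the second largest subunit of RNA polymerase I, was 0.589 and 0.611 in WT, 0.510 and 0.522 in the *Δsaf5*-labelled libraries and 0.612 and 0.602 in *Δcwf12*. With 2 libraries per strain an exact permutation test of a single ratio cannot go below p = 0.333 (two-sided), and none was run.

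Other genes of snoRNPs, rRNA synthesis and ribosome assembly were taken from 6 lists by role, of which 140 genes were matched in the table, without the 8 genes above. They are called the nucleolar lists here, although some of their proteins may act outside the nucleolus, which was not examined. In the libraries labelled *Δsaf5*, 84 of the 140 fell, or 60%, and 1 rose, where 25.5% of all genes fell and 24.7% rose, with a median log2 fold change of -0.26. In *Δcwf12*, 54 fell, or 38.6%, and 7 (5%) rose, where 25% of all genes fell and 25.5% rose, with a median of -0.14 over the 140. No gene of these lists changed 2-fold in either deletion. In the direct comparison 49 were lower (35%) and 4 higher, with a median of -0.15, where 27.8% of all genes were lower and 25.4% higher. These lists were chosen with earlier results of these libraries known, and the counts are descriptions. Several depended on 1 library. In *Δcwf12* the number that fell was 89 without WT replicate 2, 28 without *Δcwf12* replicate 1 and 23 without *Δcwf12* replicate 2, and the number that rose was 18 without WT replicate 1 and 4 without either *Δcwf12* replicate. In the direct comparison 75 were lower without WT replicate 1, 23 without *Δsaf5* replicate 1 and 18 without either *Δcwf12* replicate, and the number higher ran from 0 to 13. The number that fell in the libraries labelled *Δsaf5* was 61 to 109 with any 1 library left out, and the number that rose 1 to 3.

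Of 12 other subunit names of RNA polymerase I on the list, 8 matched a gene of the table, and these 8 fell in the libraries labelled *Δsaf5* (log2 fold changes of -0.44 to -0.25), and 2 of them fell in *Δcwf12*, or 25%, the share of all genes. *ker1*, a subunit found at 166 and 141 CPM in WT and 108 and 118 CPM in the *Δsaf5*-labelled libraries, had the largest difference (-0.44, SE 0.08, adjusted p = 9.5e-04, edgeR). In *Δcwf12* it was at 166 and 169 CPM and did not differ past the threshold (0.13, adjusted p = 0.22). *rpa2* fell in both deletions, with log2 fold changes of -0.39 (adjusted p = 0.0011) and -0.19 (adjusted p = 0.049). The same held for *rpa49*, at -0.33 (adjusted p = 0.0020) and -0.27 (adjusted p = 0.0063). Subunits of the other polymerases were counted for comparison. Of 7 RNA polymerase II subunits 4 (57.1%) fell in the libraries labelled *Δsaf5* (median -0.29). Of 10 RNA polymerase III subunits 4 (40%) fell there (median -0.18), where 25.5% of all genes tested fell. The median over the 8 RNA polymerase I subunits in these libraries was -0.35. In *Δcwf12* 0 of the 7 fell and 2 rose, and 4 of the 10 fell and 1 rose, where 25% of all genes fell and 25.5% rose. The lists were not tested against each other.

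The factors that bring RNA polymerase I to the ribosomal DNA were mixed. Of 9, 5 fell in the libraries labelled *Δsaf5*, or 55.6%, where 25.5% of all genes fell. In *Δcwf12*, 4 fell (44.4%, where 25% of all genes fell) and 2 rose (22.2%, where 25.5% of all genes rose). *spp27*, a subunit of the upstream activation factor, was at 322 and 294 CPM in WT, 176 and 177 CPM in the *Δsaf5*-labelled libraries, and 215 and 224 CPM in *Δcwf12*. It fell in both, with log2 fold changes of -0.80 (SE 0.07, adjusted p = 4.0e-06, edgeR) and -0.49 (SE 0.07, adjusted p = 1.4e-04). *hmo1*, an HMG-box protein of the ribosomal DNA, also fell in both, at -0.47 (adjusted p = 2.4e-04) and -0.33 (adjusted p = 0.0025). *rrn6*, of the core factor, changed most in *Δcwf12* (-0.54, adjusted p = 1.3e-04) and also fell in the libraries labelled *Δsaf5* (-0.29, adjusted p = 0.0090). Other subunits moved the other way in *Δcwf12*, with 0.40 for *rrn10* of the upstream activation factor (adjusted p = 0.0027) and 0.29 for *rrn11* of the core factor (adjusted p = 0.010). Neither passed in the libraries labelled *Δsaf5*, where both stood at 0.11.

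Of the 3 remaining core proteins of snoRNPs, 2 (66.7%) fell in the libraries labelled *Δsaf5*, where 25.5% of all genes fell. In *Δcwf12* 1 (33.3%) fell, where 25% of all genes fell. *nop10* and *nhp2*, the other core proteins of box H/ACA particles, fell in the libraries labelled *Δsaf5*, at log2 fold changes of -0.51 (SE 0.10, adjusted p = 0.0014, edgeR) and -0.41 (SE 0.09, adjusted p = 0.0030). *snu13*, a core protein of box C/D particles, stood at -0.21 (adjusted p = 0.081). In *Δcwf12* only *nop10* fell (-0.31, adjusted p = 0.021). Of 8 assembly factors, 2 fell and 1 rose in each deletion, and the 2 of 8 that fell are 25%, near the shares of all genes that fell (25.5% and 25%). *shq1*, known in budding yeast as the chaperone of Cbf5 before assembly, was the one that rose, from 49.2 and 46.4 CPM in WT to 58.1 and 60.2 CPM in the *Δsaf5*-labelled libraries and 59.9 and 62.4 CPM in *Δcwf12*. Its log2 fold changes were 0.31 (SE 0.08, adjusted p = 0.0063) and 0.35 (SE 0.08, adjusted p = 0.0023). *tgs1*, whose product hypermethylates the caps of snRNAs and snoRNAs, fell in the libraries labelled *Δsaf5* (-0.49, adjusted p = 0.0022) and stood at 0.05 in *Δcwf12* (adjusted p = 0.69). *hit1*, whose budding yeast relative takes part in box C/D assembly, fell in *Δcwf12* (-0.69, adjusted p = 6.2e-04) and stood at -0.26 in the libraries labelled *Δsaf5* (adjusted p = 0.088). *rvb2*, an AAA ATPase that also serves in chromatin remodelling, fell in both, at -0.20 (adjusted p = 0.039) and -0.25 (adjusted p = 0.011).

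The larger lists follow the rRNA after it is made. Of 62 genes of the small subunit processome and small subunit assembly, 37 (59.7%) fell and 0 rose in the libraries labelled *Δsaf5* (median -0.25). Over all genes tested 25.5% fell and 24.7% rose there. In *Δcwf12* 31 of the 62 (50%) fell and 2 rose (median -0.19), where 25% of all genes fell and 25.5% rose. The helicase gene *dbp8* went from 129 and 124 CPM in WT to 80.9 and 80.7 CPM in the *Δsaf5*-labelled libraries (-0.65, SE 0.08, adjusted p = 4.0e-05, edgeR), and *mpp10* from 255 and 219 to 144 and 167 CPM (-0.61, SE 0.09, adjusted p = 1.8e-04). In *Δcwf12* the largest falls were those of *rio2*, a kinase of late small subunit maturation (-0.61, adjusted p = 7.2e-05), and *utp10* (-0.41, adjusted p = 8.4e-04), while *slx9* (0.30, adjusted p = 0.0034) and *tsr3* (0.25, adjusted p = 0.018) rose.

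Of 50 genes of large subunit assembly, 30 (60%) fell and 0 rose in the libraries labelled *Δsaf5* (median -0.31). Over all genes tested 25.5% fell and 24.7% rose there. In *Δcwf12* 14 of the 50 (28%, near the 25% of all genes) fell and 2 rose (median -0.12), where 25.5% of all genes rose. *grn1*, a GTPase gene of the nucleostemin family, was at 657 and 488 CPM in WT, 317 and 346 CPM in the *Δsaf5*-labelled libraries and 498 and 480 CPM in *Δcwf12*. Its log2 fold change was -0.79 (SE 0.12, adjusted p = 1.8e-04, edgeR) in the libraries labelled *Δsaf5*. *urb2* fell in both deletions, at -0.78 (SE 0.12, adjusted p = 1.8e-04) and -0.51 (SE 0.11, adjusted p = 0.0027). In *Δcwf12*, *nop4* fell (-0.40, adjusted p = 0.0026), and *rrp14* (0.51, adjusted p = 2.9e-04) and *nop16* (0.25, adjusted p = 0.012) rose.

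**Figure D3:**
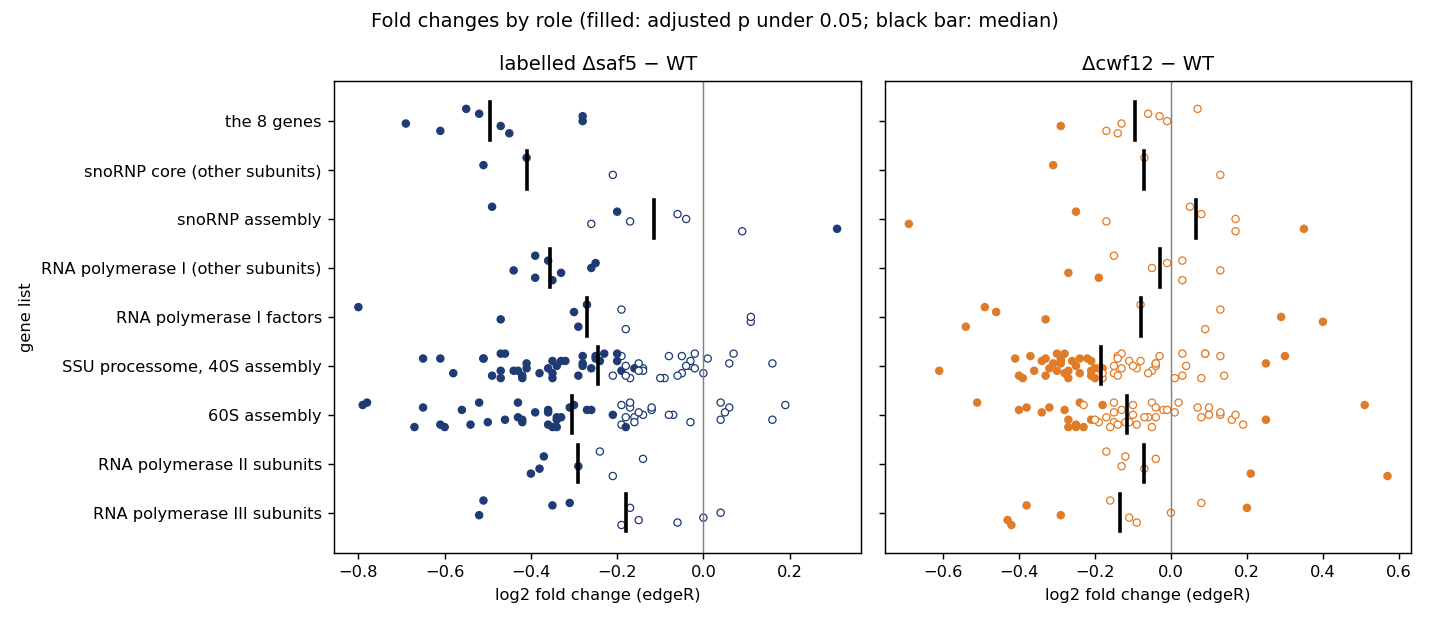
Log2 fold change of each gene against WT (horizontal axes) by role, for the libraries labelled *Δsaf5* (left, blue) and *Δcwf12* (right, orange); filled points passed an adjusted p under 0.05 in edgeR and black bars are medians. In the left panel the medians of the 8 genes (-0.49), of the RNA polymerase I subunits (-0.35) and of the large subunit assembly genes (-0.31) lie left of 0, and the snoRNP assembly factors have the median nearest 0 (-0.12).

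Genes with and without introns were among those that fell. Splicing was not measured here, and a part of introns in these differences was not tested. Of the 8 genes, 6 have no intron, and these also fell in the libraries labelled *Δsaf5*. Among the 140 genes of the nucleolar lists, 40 of 60 without introns (66.7%) fell there, with a median log2 fold change of -0.33. Of the 80 with introns 44 (55%) fell, with a median of -0.22, where 25.5% of all genes tested fell. In *Δcwf12* 31 of the 60 without introns (51.7%) fell and 0 rose. Of the 80 with introns 23 (28.8%, near the 25% of all genes) fell and 7 (8.75%) rose, where 25.5% of all genes rose.

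Many but not all other highly expressed genes were also lower in the libraries labelled *Δsaf5*, where 25.5% of all genes tested fell and 24.7% rose. Of the 76 genes of large subunit ribosomal proteins 67 (88.2%) fell (median log2 fold change -0.43). Of the 55 of small subunit ribosomal proteins 50 (90.9%) fell (median -0.45). In *Δcwf12* 6 of the former fell and 4 rose, 1 of the latter fell and 1 rose, and the medians were -0.04 and -0.03. Of all genes 25% fell and 25.5% rose in *Δcwf12*. The duplicates labelled *Δsaf5* stood apart on these genes, as replicate 1 was lower than replicate 2 for each of the 76 and each of the 55, by median log2 differences of -0.25 and -0.26. Next came 360 other coding genes in the top 10% by level per length, leaving out ribosomal protein genes and the 8 genes. Of these 165 (45.8%) fell, 43 (11.9%) rose and 152 did not pass in the libraries labelled *Δsaf5*, with a median of -0.20. These libraries also had TMM factors of 1.104 and 1.040, against 0.951 to 0.981 in the other 4. The part of level or library composition in the lower values of the 8 genes was not tested.

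The pattern of the 8 genes over the 6 libraries was averaged, and the genes nearest to this mean in log2 CPM, each centred on its own mean, were looked up by Euclidean distance. The nearest were SPBC16H5.08c, an ATP-binding cassette protein of subfamily F (distance 0.0557), the acid phosphatase gene *pho4* (0.069), the thioredoxin reductase gene *trr1* (0.09), *ofd1* (0.0971) and the ribosomal protein gene *rps1801* (0.0983). SPBC16H5.08c was at 1216 and 1067 CPM in WT, 761 and 831 CPM in the *Δsaf5*-labelled libraries, and 1071 and 1033 CPM in *Δcwf12*. Of the 8 genes themselves, *cbf5* was nearest to the mean (0.0878) and *gar2* farthest (0.339). Of the 100 nearest of 6010 other genes, 14 were among the 140 of the nucleolar lists.

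Overlapping genes bear on how many reads belong to each of the 8, since the strand setting of the counting is not given in the sources used here. In ASM294v3, *cbf5* is covered along 1851 nt by the antisense noncoding RNA SPNCRNA.1051, *gar2* along 1465 nt by SPNCRNA.770 and *gar1* along 674 nt by SPNCRNA.1590. These antisense rows held 44 to 79, 65 to 128 and 17 to 48 counts per library, while the 3 genes themselves held 3994 to 21617. *fib1* overlaps *snr1* by 37 nt and *gar1* overlaps SPBC20F10.02c by 51 nt. *nop56*, *has1* and *nuc1* lie opposite noncoding RNAs that are not rows of the count table, and *nop58* has no overlap. The snoRNAs that the 8 proteins act with could not be followed, as the 64 snoRNA rows took 0.00395% to 0.00729% of the counts in these mRNA libraries.

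**Figure D4:**
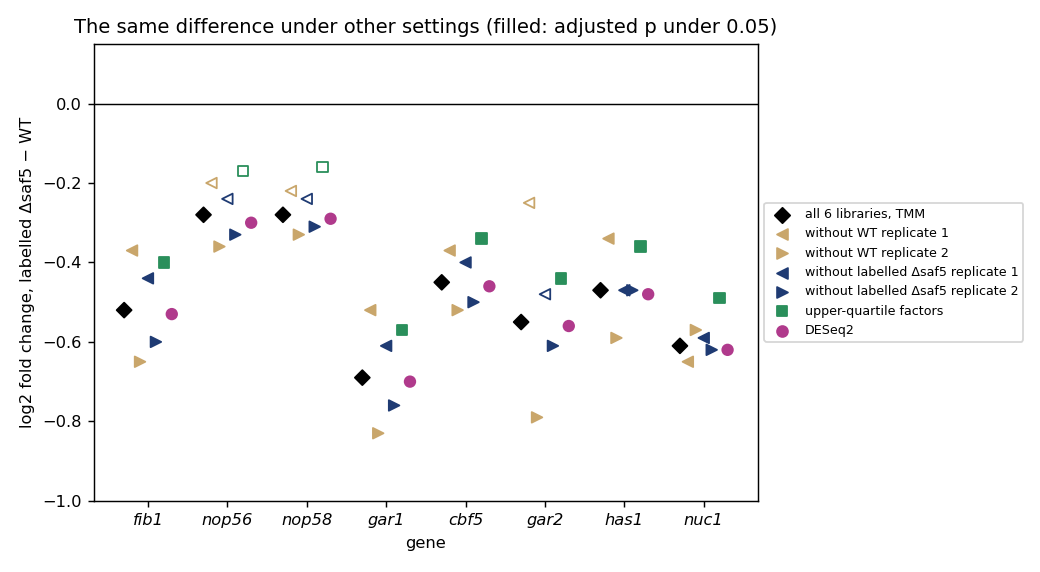
Log2 fold change of the 8 genes in the libraries labelled *Δsaf5* against WT (vertical axis) with all 6 libraries and TMM scaling (diamonds), with 1 library of these strains left out (triangles), with upper-quartile factors (squares) and with DESeq2 (circles); filled symbols passed an adjusted p under 0.05. Every symbol lies below 0, and the open ones belong to *nop56*, *nop58* and *gar2*.

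The plot of alternative settings gives the difference between the libraries labelled *Δsaf5* and WT by the way it was computed. All 8 genes kept a negative log2 fold change in each alternative run. Of these, *fib1*, *gar1*, *cbf5*, *has1* and *nuc1*, passed with any 1 library of either strain left out, and the count was 5 of 8 without WT replicate 1 and without *Δsaf5* replicate 1, and 6 of 8 without either *Δcwf12* replicate. DESeq2 called all 8.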

How the data were processed

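The table deposited by the authors holds unnormalized whole-number counts of reads on each gene, and a gene length. Per the submitters' notes and the methods, paired reads of a stranded mRNA kit were made from hot phenol RNA, trimmed with Trimmomatic, mapped with STAR to ASM294v2 and counted with HTSeq; annotation release, feature type and strand setting are not given in the sources used here. Columns were matched to samples by title.

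Strain effects were estimated in edgeR 4.0.16 (R 4.3.3) after filterByExpr (6018 of 7268 genes) and TMM scaling, with the 3 strains as the only term of 1 quasi-likelihood fit to the 6 libraries and Benjamini-Hochberg adjustment. SEs were derived from the F statistic. With 2 biological duplicates per strain, p-values set each difference against the spread between these cultures. For each gene that spread is 1 estimate shared by the 3 strains and drawn towards that of other genes. It assumes an equal spread in each strain, although the duplicates did not agree equally well. Counts between the duplicates differed by more than sampling noise (chi-square per degree of freedom 22.5 in WT, 6.2 in *Δsaf5*, 2.01 in *Δcwf12*). The procedure was tested on simulated data that gave the 3 strains an equal spread, so unequal spread between strains was not covered.

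Named genes were the 8, the deleted genes, the 2 highest and 2 lowest that passed in each nucleolar list and deletion without overlapping WT, and the 5 nearest profiles; *snu13* and the genes opposite the 8 were added after their values were seen, as was the group of highly read genes. The 8 genes and all lists were chosen with earlier results of these data known. Symbols, introns and sequences came from RefSeq ASM294v3, which matched 6846 identifiers; of 175 symbols in the 6 nucleolar lists, 4 that name another protein there were dropped and 31 found no gene of that name. Alternatives were DESeq2 1.42.0, other scaling factors and filters, only the 2 strains compared, the replicate block, and each library left out. Protein sequences were not used here.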

Additional observations from a re-analysis of the deposited data

Results flagged for a closer look

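The difference between the deletions was itself tested for each of the 8 genes, and for 7 it passed (edgeR, adjusted p under 0.05). These genes stood lower in the libraries labelled *Δsaf5* than in *Δcwf12*, where 27.8% of all genes tested were lower and 25.4% higher. The log2 differences were -0.62 for *gar2* (adjusted p = 0.0036), -0.56 for *gar1* (adjusted p = 7.6e-04), -0.46 for *fib1* (adjusted p = 0.0031), -0.43 for *nuc1* (adjusted p = 5.0e-04), -0.31 for *cbf5* (adjusted p = 0.012), -0.27 for *nop56* (adjusted p = 0.026) and -0.25 for *nop58* (adjusted p = 0.028). Those of *fib1*, *gar1* and *nuc1* passed with any 1 library left out. Those of *nop56*, *nop58* and *cbf5* were lost without *Δsaf5* replicate 1 (adjusted p = 0.12, 0.093 and 0.059) and without either *Δcwf12* replicate, and that of *gar2* without *Δsaf5* replicate 1 (adjusted p = 0.054). As reads on *saf5* were not lost from the libraries labelled *Δsaf5*, these differences are between libraries as labelled.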

How the results depend on the processing

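Among the single-gene results, 179 kept direction and call under the alternatives other than leaving out a library, 7 lost the call, 1 gained it and 5 changed sign; with a library left out the numbers were 109, 23, 6 and 6. Causes were not tested, and *Δsaf5* here stands for the libraries so labelled. A fit with a library left out assumes that the lone sample varies like the other groups. Upper-quartile factors raised the median of all genes by 0.11 in *Δsaf5* and 0.07 in *Δcwf12*; with them 6 nucleolar list genes rose in *Δsaf5*, 12 rose and 32 fell in *Δcwf12* with 0 of the 8 genes lower, 7 were higher in the direct comparison, and in *Δcwf12* the uncalled *fib1*, *nop56* and *nop58* stood at 0.02, 0.06 and 0.05. TMM on coding genes gave 2 list genes up in *Δsaf5*, and 0.02 for *nop56* and 0.01 for *nop58* in *Δcwf12*. DESeq2 gave 0 list genes up in *Δsaf5*, 4 in *Δcwf12* and 0 higher in the direct comparison. With only the 2 strains compared, 13 were higher in the direct comparison, and *nop56* and *nop58* were lost in *Δsaf5* (adjusted p = 0.055 and 0.054). At a log2 fold change of at least 1, 0 of the 8 and 0 list genes passed in each comparison. With 1 library left out, the 8 genes gave 5 to 8 lower in *Δsaf5*, 0 to 1 higher and 0 to 3 lower in *Δcwf12*, and 3 to 8 lower directly; list genes gave 1 to 3 up in *Δsaf5*, 4 to 18 up and 23 to 89 down in *Δcwf12*, and 0 to 13 higher and 18 to 75 lower directly. In *Δcwf12* values then ran from -0.20 to 0.09 for *fib1*, -0.10 to 0.06 for *nop56*, -0.09 to 0.03 for *nop58*, -0.28 to 0.03 for *gar1* and -0.18 to 0.37 for *gar2*. With the replicate block, the direct differences of *nop56* (-0.27, adjusted p = 0.051) and *nop58* (-0.25, adjusted p = 0.063) were lost and no other call of the 8 genes changed. The numbers did not pair the samples (correlations of deviations 0.0523, 0.00339 and -0.0147).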

Other observations

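Of the 64 snoRNA rows, 7 had enough reads to be tested, and of the 47 rRNA rows, 3. Against WT, 2 snoRNA rows (28.6%) rose and 0 fell in the libraries labelled *Δsaf5* (edgeR, adjusted p under 0.05). In *Δcwf12* 4 snoRNA rows (57.1%) rose and 1 (14.3%) fell. Of the rRNA rows 1 (33.3%) rose in each deletion. Over all genes tested 24.7% rose and 25.5% fell in the libraries labelled *Δsaf5*, and 25.5% rose and 25% fell in *Δcwf12*. With so few rows these shares are descriptions only. All snoRNA rows of a library together held 391 to 774 counts and all rRNA rows 51 to 199, and the kit selects mRNA, so these rows cover few of the snoRNAs and a minute share of the rRNA.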
